A study of Homo sapiens with 36 samples.

Results

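The proteasome is described here through the transcripts of its subunit and assembly genes. They were taken as the protein-coding genes whose symbol is PSM followed by A, B, C, D, E or G and a number, which gave 47 of the 60675 genes in the table and of its 19586 protein-coding genes. They were divided by role into 7 alpha and 7 beta genes of the standard core, 3 immunoproteasome genes (PSMB8, PSMB9 and PSMB10), 6 ATPase and 11 non-ATPase genes of the regulatory particle, 4 genes of alternative activators, 7 assembly genes and 2 core genes of restricted tissues (PSMA8 and PSMB11). PSMA8, a testis subunit, had 0 counts in all 36 libraries, and PSMB11, a thymus subunit, had 1 count over the 18 libraries of each line. A count of 0 allows up to 3 counts, or 0.0886 to 0.188 CPM (counts scaled to a common library total) in a library, for counting error only. The other 45 members were tested in every comparison.

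The proteasome degrades proteins that carry ubiquitin chains. Alpha subunits form the outer rings of its barrel-shaped core and gate the entrance, while beta subunits form the inner rings, of which PSMB6, PSMB7 and PSMB5 carry the caspase-like, trypsin-like and chymotrypsin-like sites. The regulatory particle binds ubiquitin chains, removes them and unfolds the substrate with its ring of ATPases. Interferon induces PSMB9, PSMB10 and PSMB8, which take the places of PSMB6, PSMB7 and PSMB5 in newly built cores, and also the activator subunits PSME1 and PSME2. The standard subunit genes are commonly regulated together, and the transcription factor NFE2L1 raises them when proteasome activity falls short.

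SW1783 is a human astrocytoma line, grown in Leibovitz medium without CO2, and HT29 is a human colorectal adenocarcinoma line, grown in DMEM with CO2. Cells were kept for 24 h with ACD, the herbal drug made from processed roots of Aconitum carmichaeli and extracted in hot water, in order to compare how a brain-derived and an intestine-derived line respond. In batch B of each line, vehicle (0.1% DMSO) stood beside ACD at 500 µg/mL (high), 100 µg/mL (medium) and 20 µg/mL (low). In batch A, a second vehicle group stood beside wortmannin (10 µM), which blocks PI3K and served as positive control. Each of these 12 groups had 3 replicates, and no source says whether they were separate cultures, so that p-values measure only the spread between these libraries, which may be technical.

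Total counts per library were 18863852 to 26436841 in SW1783 and 15941250 to 33866636 in HT29. VIM was at 4076 to 4975 CPM in SW1783, but the glial markers GFAP, S100B, AQP4 and SOX2 were at 0.261 CPM or less, so that only the label names it a glial line. HT29 had EPCAM at 452 to 585 CPM and the intestinal factor CDX2 at 4.80 to 7.32 CPM. Replicate 2 of HT29 at the high dose stood apart from the other libraries of its group, so its influence on the members at that dose is given below. Between batch A and batch B, vehicle libraries with equal replicate number differed less from each other (chi-square over genes divided by its degrees of freedom, 1.45 to 1.61) than any pair of different number (1.98 to 16.5). The labels do not say whether such a pair shares an RNA sample, and the vehicle groups of the 2 batches may therefore not be independent. In these bulk libraries, fewer cells of a kind and less RNA per cell cannot be told apart.

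The question first addressed was how far the subunit transcripts of SW1783 and HT29 differed in vehicle. In every comparison of the lines, line and culture medium cannot be told apart. Levels of different genes were compared in batch B vehicle as CPM per kb of canonical transcript, called level here. The median level of the 7 alpha genes was 114 in SW1783 and 92.4 in HT29, that of the 7 standard beta genes 176 and 153, and that of the 6 ATPases 69.9 and 63.3. These medians did not hold gene by gene. Of the alpha genes, PSMA1, PSMA2, PSMA4, PSMA5 and PSMA7 had the higher mean level in HT29, and only PSMA3 and PSMA6 in SW1783. Of the beta genes, PSMB1, PSMB2 and PSMB3 were higher in HT29, and PSMB4, PSMB5, PSMB6 and PSMB7 in SW1783. PSMA7, an alpha ring subunit, had the highest level of the alpha genes in both lines, 231 ± 9.1 in SW1783 and 375 ± 55 in HT29 (SD, n = 3). PSMA5 had the lowest, at 27.3 in SW1783 and 34.9 in HT29. Part of that gap lay in the length used, 3815 bases for PSMA5 and 962 for PSMA7, since before division by length PSMA5 was at 104 and 133 CPM and PSMA7 at 222 and 361 CPM.

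By the rule of the study, an adjusted p under 0.05 and a change of more than 1.5-fold, 11 of 45 members were higher in SW1783 vehicle and 8 were lower, against 26.6% and 22.8% of all 25710 genes tested, so that neither share of the members lay far from the background. Without HT29 vehicle replicate 1 the lower count was 5. PSMB9 was 371, 369 and 386 normalized counts (counts divided by DESeq2 size factors) in SW1783 and 15.8, 22.7 and 14.6 in HT29 (log2 fold change 4.34, SE 0.206, adjusted p = 1.08e-97), the largest difference of any member. PSMB8 was 849, 831 and 781 against 212, 218 and 173 (log2 fold change 2.03, SE 0.127, adjusted p = 1.14e-56). PSMB10 went the other way, with 389, 415 and 431 in SW1783 and 786, 630 and 553 in HT29 (log2 fold change -0.67, SE 0.141, adjusted p = 4.7e-06). The 3 immunoproteasome genes thus did not share a direction between the lines.

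Among the standard subunits, PSMD2, the scaffold on which shuttle factors dock, was 19845, 19640 and 19631 in SW1783 and 5908, 5865 and 5855 in HT29 (log2 fold change 1.75, SE 0.057), with no overlap. Per length it was the most abundant regulatory non-ATPase gene in SW1783, at a level of 309. In HT29 that place belonged to PSMD8, at 173. The ATPase gene PSMC1 and the ATPase chaperone gene PSMD10 were also higher in SW1783, with log2 differences of 1.34 and 1.37. PSMG2, a chaperone of alpha ring assembly, was lower, 768, 783 and 779 against 2324, 1937 and 1954 (log2 fold change -1.41, SE 0.127, adjusted p = 3.2e-28), while its partner PSMG1 was slightly higher (log2 fold change 0.29, SE 0.116, adjusted p = 0.0199), a call lost under 5 of 12 alternatives. PSMD2, PSMC1, PSMD10 and PSMG2 were singled out after their values were seen.

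**Figure D1:**
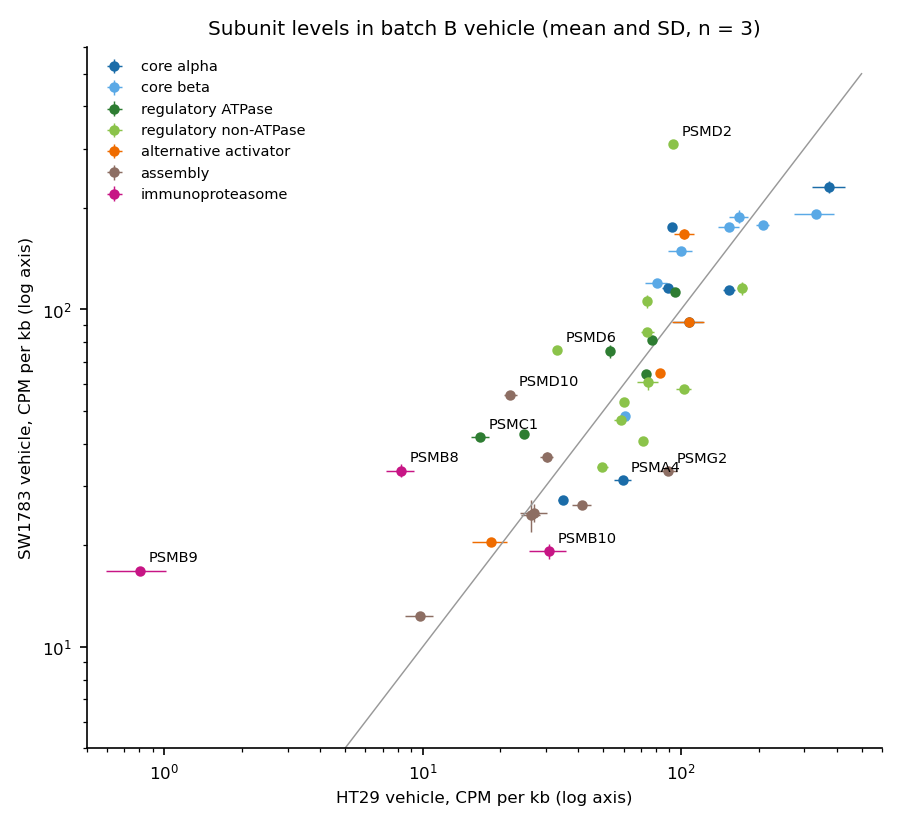
Levels of 45 members in batch B vehicle, HT29 on the horizontal and SW1783 on the vertical axis, both logarithmic and in CPM per kb; points are means and bars SDs of 3 replicates, colors mark roles and the line marks equality. PSMB9, at 16.8 in SW1783 and 0.806 in HT29, and PSMB8, at 33.3 and 8.26, lie farthest to the upper left, while PSMB10 and PSMG2 lie below the line.

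Wortmannin was compared with its own vehicle to see how the same genes moved with this drug. In SW1783 39 of 45 members fell and none rose at an adjusted p under 0.05, against 19.2% of 14511 genes falling and 13.3% rising. All 31 standard core and regulatory genes were among those that fell, with log2 fold changes from -0.42 to -0.14. In HT29 35 members fell and 2 rose, against 11.7% and 8.06% of 13144 genes, and again all 31 standard genes fell, from -0.53 to -0.25. The share of members that fell, 86.7% in SW1783 and 77.8% in HT29, also exceeded that among genes with a mean of 500 or more normalized counts, 30.6% and 18.6%. The median log2 fold change of the members was -0.26 and -0.32, whereas that of all genes tested was -0.002 and -0.006. Beside the 0 rises in SW1783 by DESeq2, 0 members had a higher value at an unadjusted p under 0.05, and edgeR called 1 (PSME1).

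These decreases were small. By the study rule, 0 members in SW1783 (also 0 by edgeR) and 2 in HT29 were called, against 2.71% and 2.74% of all genes, and both calls were increases. The summed normalized count of the 14 standard core genes was 50704, 50084 and 50393 in SW1783 vehicle and 41483, 40938 and 41759 with wortmannin, which is 82.1% of vehicle. In HT29 it was 60523, 50515 and 50049 in vehicle and 40324, 40485 and 40385 with wortmannin, or 75.2%. The 17 regulatory genes summed to 81.9% and 77.8% of vehicle. Groups did not overlap in either sum, although HT29 vehicle replicate 1 lay well above its group. Leaving out any single library left 36 to 39 members lower in SW1783 and 30 to 35 in HT29.

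Values of single standard genes follow, by role. PSMC3, an ATPase, was 2165, 2171 and 2153 normalized counts with wortmannin and 2922, 2833 and 2918 in vehicle of SW1783 (log2 fold change -0.42, SE 0.040, adjusted p = 1.62e-23). PSMC5, another ATPase of the ring, had the strongest fall of the standard genes (log2 fold change -0.42, SE 0.037, adjusted p = 1.32e-28). PSMD1, a scaffold of the regulatory particle, was 3382, 3241 and 3260 against 3765, 3817 and 3643 (log2 fold change -0.18, SE 0.036, adjusted p = 3.61e-06), so that even this weaker fall left no overlap. In HT29 PSMD1 went from 4800, 4217 and 4286 to 3366, 3346 and 3352 (log2 fold change -0.40, SE 0.066, adjusted p = 5.23e-08). PSMB3, a structural beta subunit singled out as the standard gene with the strongest fall in HT29, was 3893, 3792 and 3944 against 6845, 5209 and 4731 (log2 fold change -0.53, SE 0.111, adjusted p = 4.82e-05).

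Activator and assembly genes were less uniform. PSME2, the beta subunit of the interferon-induced activator, was 2238, 2195 and 2303 with wortmannin and 3005, 3203 and 3101 in vehicle of SW1783 (log2 fold change -0.47, SE 0.042, adjusted p = 1.93e-27), while its partner PSME1 was 2184, 2213 and 2305 against 2109, 2114 and 2100 (log2 fold change 0.08, SE 0.044, adjusted p = 0.135). In HT29 neither passed the test, with PSME2 at -0.03 and PSME1 at 0.02. PSME3, the nuclear activator, was lower in both lines, by 0.22 and 0.13 on the log2 scale, but in HT29 its call was lost under 9 of 11 alternatives. Among them were 5 of the 6 fits that left out 1 library, all except that without vehicle replicate 1. Of the 7 assembly genes, 4 fell in SW1783 and 3 (PSMG2, PSMG3 and PSMD10) in HT29, whereas edgeR called 6 and 1. The fall of PSMG3 was lost under 6 of 11 alternatives in SW1783 and 7 of 11 in HT29, and that of PSMD10 in HT29 under 4 of 11. PSMG1, the alpha ring chaperone, showed the strongest fall of any member in SW1783, from 1522, 1462 and 1506 to 1081, 1010 and 1065 (log2 fold change -0.51, SE 0.057, adjusted p = 1.12e-17).

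**Figure D2:**
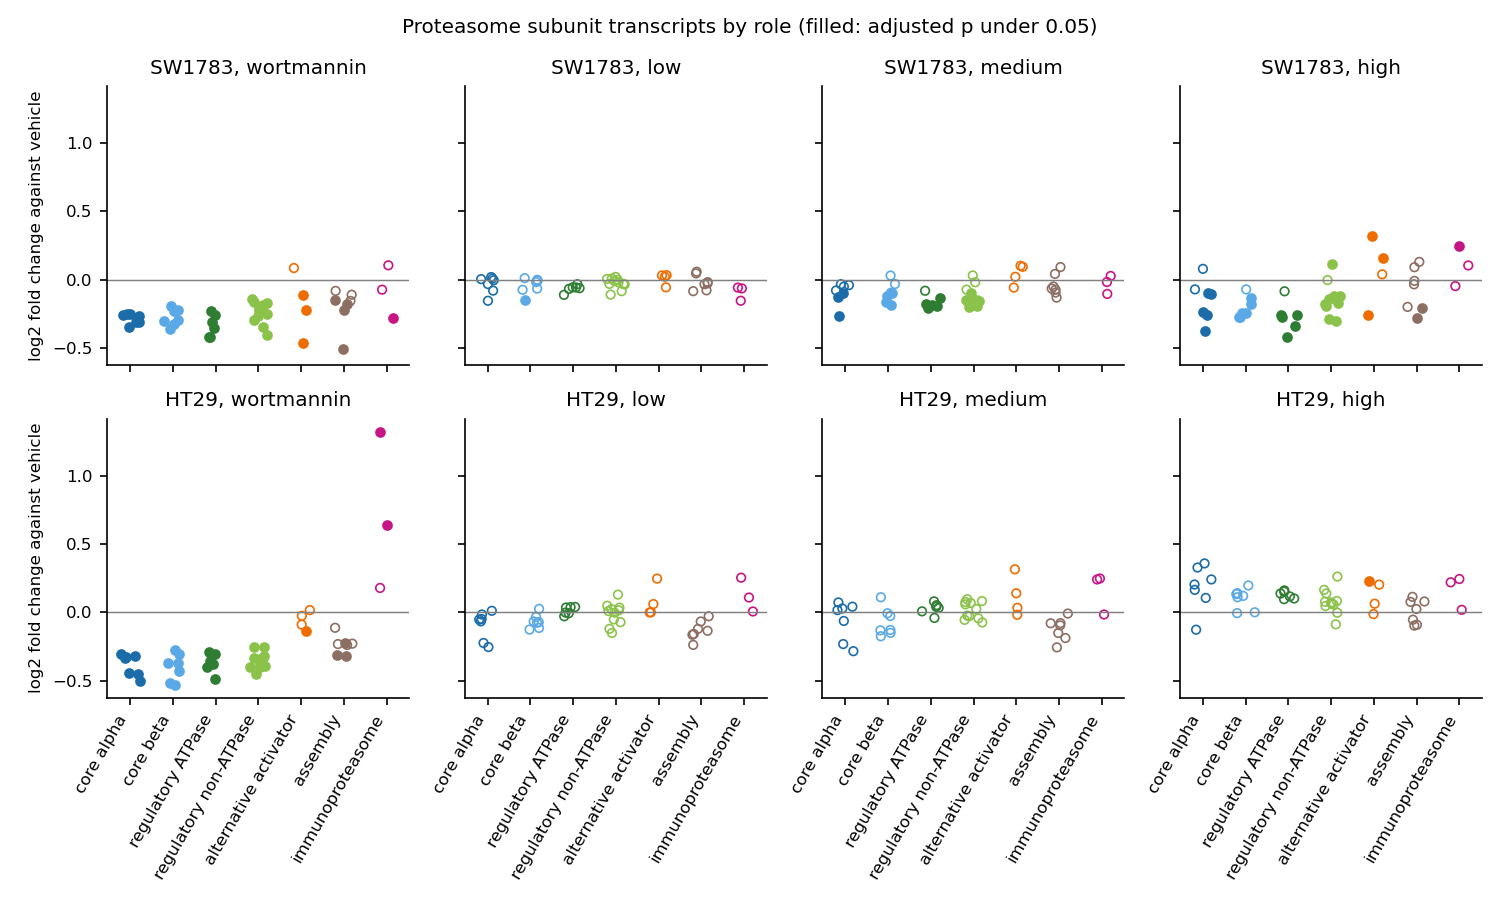
Log2 fold change against the vehicle of the same batch for 45 members, by role, in SW1783 (upper row) and HT29 (lower row), for wortmannin and for low, medium and high ACD; each point is a gene and filled points have an adjusted p under 0.05. With wortmannin all 31 standard genes lie below 0 in both lines and PSMB9 (1.32) and PSMB8 (0.64) stand above them in HT29; with ACD the standard genes move down with dose in SW1783 only as far as -0.42.

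The immunoproteasome genes departed from the standard genes in HT29. There PSMB9 was 36.3, 41.6 and 52.2 normalized counts with wortmannin and 19.6, 15 and 17.9 in vehicle (log2 fold change 1.32, SE 0.369, adjusted p = 0.00377). PSMB8 was 348, 343 and 304 against 253, 195 and 195 (log2 fold change 0.64, SE 0.143, adjusted p = 0.00017). Both genes rose without overlap, although PSMB9 was measured on few counts. PSMB10 was 791, 728 and 862 against 778, 680 and 645, with overlap (log2 fold change 0.18, SE 0.103, adjusted p = 0.226), and passed only without vehicle replicate 1 (adjusted p = 0.0417). PSMB8 kept its call in all 6 fits that left out 1 library, with adjusted p from 2.93e-06 to 0.0135, but its fold fell just short of the 1.5-fold limit without vehicle replicate 2 (0.57) or replicate 3 (0.58). PSMB9 lost its call without vehicle replicate 2 (adjusted p = 0.0538) or wortmannin replicate 3 (0.0717) and was not tested without wortmannin replicate 1.

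In SW1783, where PSMB9 and PSMB8 started higher, none of the 3 genes rose with wortmannin. PSMB9 was 342, 344 and 336 with wortmannin and 403, 375 and 469 in vehicle (log2 fold change -0.28, SE 0.107, adjusted p = 0.0279). PSMB8 was 787, 856 and 816 against 848, 904 and 833 (log2 fold change -0.07, SE 0.070, adjusted p = 0.467), and PSMB10 460, 450 and 464 against 396, 422 and 462 (log2 fold change 0.10, SE 0.095, adjusted p = 0.449). The fall of PSMB9 was lost without vehicle replicate 3 or without any 1 of the wortmannin libraries (adjusted p = 0.0784 to 0.273). The difference between the lines, tested as an interaction, was -1.64 for PSMB9 (adjusted p = 4.49e-07) and -0.74 for PSMB8 (adjusted p = 7.91e-07), both as SW1783 minus HT29 on the log2 scale. For PSMB10 it was -0.10, with a 95% interval of -0.35 to 0.16.

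Reads per kb were also set against those of the standard counterpart in each library. PSMB9 made up 0.76%, 0.72% and 0.82% of PSMB9 plus PSMB6, the caspase-like pair, in HT29 vehicle of batch A and 2.21%, 2.63% and 3.14% with wortmannin. PSMB8 made up 10.3%, 8.52% and 9.22% of PSMB8 plus PSMB5, the chymotrypsin-like pair, in vehicle and 16.8%, 16.4% and 15.4% with wortmannin. For PSMB10 and PSMB7, the trypsin-like pair, the shares were 17.9%, 19.0% and 17.5% against 24.6%, 22.9% and 25.8%. All 3 shares were thus higher with wortmannin in HT29 without overlap, and in the last pair PSMB7 fell while PSMB10 was not called. In SW1783 the PSMB9 share was 10.6% ± 0.97 in vehicle and 11.2% ± 0.42 with wortmannin (SD, n = 3), which overlapped. The SW1783 share of PSMB8 was 20.5%, 21.57% and 20.85% in vehicle and 22.33%, 23.89% and 22.3% with wortmannin, without overlap, and that of PSMB10 was 9.36% ± 0.68 and 12.01% ± 0.25, again without overlap. In SW1783 PSMB5 and PSMB7 fell with wortmannin (log2 fold changes -0.229 and -0.298), while PSMB8 and PSMB10 were not called. These are shares of transcripts, and 3 libraries against 3 cannot give an exact two-sided permutation p below 0.10, so no test was made on them.

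**Figure D3:**
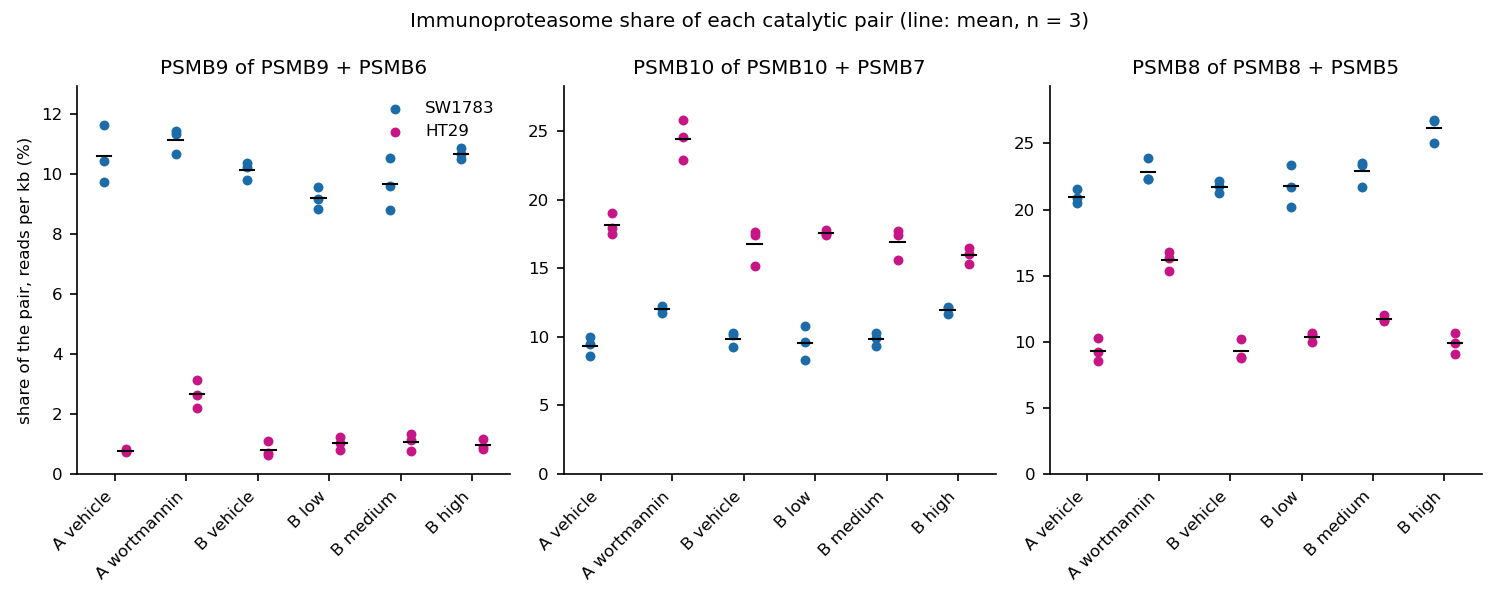
Share of the immunoproteasome transcript in each catalytic pair, as a percentage of reads per kb, in the 12 groups; points are libraries, black lines means of 3, blue is SW1783 and magenta HT29. In HT29 the wortmannin libraries lie above all vehicle libraries in the 3 panels, and SW1783 lies above HT29 in the PSMB9 and PSMB8 panels but below it in the PSMB10 panel.

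PSMB8 and PSMB9 are neighbours in the major histocompatibility region, at chr6:32840717-32844679 on the minus strand and chr6:32844136-32859851 on the plus strand of GRCh38. Their annotated ends overlap, and the strand setting of the counting is not given in the sources used here, so a small part of their reads may have been divided between them by the counting. PSMB10 lies at chr16:67934506-67936864 on the minus strand. The region around each transcript start (250 bases before and 50 after it, RefSeq, GRCh38.p14) is printed for the 3 immunoproteasome genes and for PSMB5, the standard counterpart of PSMB8. Capitals mark matches to the core of the antioxidant response element (TGACNNNGC) or of the interferon-stimulated response element (TTTCNNTTT) on either strand.
PSMB8, chr6:32844630-32844929, minus strand: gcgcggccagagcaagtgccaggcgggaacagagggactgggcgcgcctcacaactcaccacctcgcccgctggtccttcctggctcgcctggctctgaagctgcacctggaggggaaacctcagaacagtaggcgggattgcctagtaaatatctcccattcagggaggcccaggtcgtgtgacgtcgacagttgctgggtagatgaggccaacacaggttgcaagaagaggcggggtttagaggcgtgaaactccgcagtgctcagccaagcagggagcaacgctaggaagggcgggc
PSMB9, chr6:32853942-32854241, plus strand: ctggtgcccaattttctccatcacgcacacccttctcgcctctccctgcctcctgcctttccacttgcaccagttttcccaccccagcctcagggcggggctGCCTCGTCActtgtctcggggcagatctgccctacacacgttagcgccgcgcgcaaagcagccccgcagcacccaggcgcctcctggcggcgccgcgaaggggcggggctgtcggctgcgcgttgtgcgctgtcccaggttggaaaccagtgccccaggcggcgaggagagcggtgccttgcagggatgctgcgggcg
PSMB10, chr16:67936801-67937100, minus strand: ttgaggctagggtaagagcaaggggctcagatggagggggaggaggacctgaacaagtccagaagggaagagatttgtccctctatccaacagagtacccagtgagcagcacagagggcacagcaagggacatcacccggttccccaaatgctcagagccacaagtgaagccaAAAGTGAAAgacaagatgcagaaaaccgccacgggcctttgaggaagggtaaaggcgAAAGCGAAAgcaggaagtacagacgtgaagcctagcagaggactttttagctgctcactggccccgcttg
PSMB5, chr14:23035171-23035470, minus strand: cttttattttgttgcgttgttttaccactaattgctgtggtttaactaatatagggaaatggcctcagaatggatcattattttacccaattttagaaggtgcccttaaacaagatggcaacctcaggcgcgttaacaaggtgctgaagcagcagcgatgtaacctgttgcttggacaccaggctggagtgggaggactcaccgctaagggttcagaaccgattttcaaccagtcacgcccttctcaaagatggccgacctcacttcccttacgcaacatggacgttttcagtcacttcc

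PSMB10 held 2 interferon-type matches, PSMB9 held 1 antioxidant-type match, and PSMB8 and PSMB5 held neither in these windows. Of the 47 members 41 had a promoter in the table. The interferon-type motif was present in 7 of them (17.1%), among them PSME1 and PSME2, against 10.6% of 27305 promoters of the same length and 8.58% of the 15226 protein-coding ones. The antioxidant-type motif, which NFE2L1 can also bind, was present in 13 (31.7%) against 13.6% of all and 14.3% of protein-coding promoters. The GC box GGGCGG was found in 28 (68.3%) against 44.6% of all and 59.4% of protein-coding promoters, and CCAAT, bound by NF-Y, in 19 (46.3%) against 35.7% and 36.7%. TGATGNAA, a motif bound by ATF4, was found in 0 of 41 against 3.67% and 2.53%. A match describes letters in the window and not a bound site.

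ACD was compared with vehicle in SW1783 to follow the subunits across dose. At the high dose 28 of 45 members fell and 4 rose, against 21.9% and 23.1% of 20050 genes tested. At the medium dose 20 fell and 0 rose, against 14.5% and 15.1% of 14082 genes. At the low dose 1 fell and 0 rose, against 1.33% and 2.24% of 8707 genes. Of the 31 standard core and regulatory genes 25 fell at the high dose (80.6%) and 20 at the medium dose, and of the other 14 members 3 and 0 fell. The median log2 fold change of members was -0.142, -0.095 and -0.032 from high to low dose, with -0.012, -0.001 and 0.005 for all genes tested.

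No member reached the study rule at any dose by DESeq2 or edgeR, against 17.7%, 3.81% and 0.103% of all genes at high, medium and low dose. Of members with a higher value, 2 at the medium and 0 at the low dose had an unadjusted p under 0.05, and edgeR called 2 and 0 of them. Without vehicle replicate 3, medium replicate 2 or medium replicate 3 the 20 falls at the medium dose became 13, 13 and 12, the single fall at the low dose was lost in each of the 6 fits without 1 library, and the 4 rises at the high dose became 2 without high replicate 1, high replicate 2 or vehicle replicate 2. The share of counts in mitochondrial ribosomal RNA moved with ACD, from 0.93% in vehicle to 3.14%, 7.83% and 5.93% at low, medium and high dose. When only nuclear protein-coding genes were counted, the median at the high dose was -0.151.

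Among the ATPases, PSMC3 had normalized counts of 1923, 1868 and 1893 at the high dose, 2304, 2185 and 2192 at the medium dose, 2309, 2448 and 2283 at the low dose and 2538, 2520 and 2554 in vehicle. It fell at the high dose (log2 fold change -0.42, SE 0.042, adjusted p = 1.54e-22) and at the medium dose (log2 fold change -0.19, SE 0.042, adjusted p = 4.95e-05), and high and low libraries did not overlap. PSMC4 was the ATPase with the weakest change, 2113, 2237 and 2119 against 2271, 2309 and 2293 (log2 fold change -0.09, SE 0.042, adjusted p = 0.0819). In the core, PSMB2, a structural beta subunit, was 3580, 3590 and 3555 against 4394, 4180 and 4400 (log2 fold change -0.27, SE 0.034, adjusted p = 8.9e-15). PSMB7, with the trypsin-like site, was 3438, 3359 and 3201 against 3547, 3385 and 3574 (log2 fold change -0.07, SE 0.037, adjusted p = 0.101). The alpha ring gene PSMA2 was 1982, 2234 and 1930 against 2768, 2610 and 2603 (log2 fold change -0.38, SE 0.100, adjusted p = 0.000552), whereas PSMA6 of the same ring was 3429, 3595 and 3360 against 3770, 3557 and 3598 and did not pass (adjusted p = 0.102).

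Of the regulatory non-ATPase genes 9 of 11 fell at the high dose. PSMD1 was 2657, 2497 and 2527 against 3228, 3128 and 3129 in vehicle (log2 fold change -0.31, SE 0.039, adjusted p = 2.03e-14). PSMD8, a lid subunit, was the least changed, 3657, 3401 and 3576 against 3705, 3385 and 3569 (log2 fold change -0.004, SE 0.042, adjusted p = 0.959). PSMD7, the structural partner of the deubiquitinase PSMD14, was the only standard gene that rose by DESeq2 (log2 fold change 0.12, SE 0.047, adjusted p = 0.0356), with overlap of the groups. By edgeR PSMA5 was called as well (adjusted p = 0.0406). PSMD14 itself fell (log2 fold change -0.17, SE 0.048, adjusted p = 0.000969).

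The activators divided. PSME1 was 2190, 2271 and 2228 at the high dose, 1991, 1896 and 1855 at the medium dose, 1800, 1892 and 1802 at the low dose and 1768, 1804 and 1807 in vehicle, and it rose at the high dose (log2 fold change 0.32, SE 0.044, adjusted p = 4.81e-12). Its partner PSME2 was 2694, 2848 and 2723 against 2721, 2740 and 2587 (log2 fold change 0.04, SE 0.045, adjusted p = 0.543). PSME3 was 3493, 3547 and 3436 against 4256, 4200 and 4096 and fell (log2 fold change -0.26, SE 0.032, adjusted p = 3.39e-15), while PSME4, the largest of the activator proteins, rose (log2 fold change 0.15, SE 0.036, adjusted p = 7.15e-05). Of the assembly genes PSMG3 fell most, 565, 602 and 583 against 641, 692 and 794 (log2 fold change -0.28, SE 0.080, adjusted p = 0.00144; adjusted p = 0.0519 without vehicle replicate 3), PSMD10 also fell (log2 fold change -0.21, SE 0.056, adjusted p = 0.000762), and PSMG1 was 1275, 1330 and 1255 against 1327, 1244 and 1321 (log2 fold change -0.01, SE 0.057, adjusted p = 0.91).

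None of the immunoproteasome genes fell past the test at any ACD dose in SW1783, although the log2 fold change of PSMB9 was below 0 at every dose. PSMB10 was 470, 463 and 418 at the high dose and 359, 384 and 399 in vehicle (log2 fold change 0.24, SE 0.102, adjusted p = 0.0396), a rise without overlap. It was lost without high replicate 1 or 2 or vehicle replicate 1 or 2, with adjusted p of 0.0279 to 0.161 over the 6 fits that left out 1 library. Its values were 367, 404 and 388 at the medium dose (log2 fold change 0.03) and 373, 410 and 312 at the low dose (-0.06), neither of which passed. PSMB8 was 828, 795 and 823 at the high dose, 714, 791 and 740 at the medium dose, 674, 758 and 744 at the low dose and 784, 768 and 722 in vehicle (log2 fold changes 0.10, -0.02 and -0.07). PSMB9 was 336, 341 and 329 at the high dose, 299, 350 and 315 at the medium dose, 330, 304 and 299 at the low dose and 342, 341 and 357 in vehicle (log2 fold changes -0.05, -0.10 and -0.15). Neither PSMB8 nor PSMB9 passed at any dose. The share of PSMB8 in its pair was 22.15%, 21.77% and 21.23% in vehicle and 26.77%, 25.02% and 26.66% at the high dose, without overlap. That of PSMB10 was 9.24%, 10.25% and 10.1% against 12.1%, 12.19% and 11.63%. For PSMB9 it was 9.8%, 10.24% and 10.37% against 10.86%, 10.67% and 10.52%, so that these 2 shares did not overlap either. PSMB5, the partner of PSMB8, fell at this dose (log2 fold change -0.246), while PSMB8 and PSMB9 were not called. A higher share is therefore not by itself a rise of the immunoproteasome transcript.

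High and medium dose were also compared directly in SW1783. From medium to high 11 members fell further and 5 rose, against 19.1% and 20.3% of 17064 genes, so that these shares lay near the background. PSMC3 (log2 fold change -0.23, SE 0.043, adjusted p = 3.42e-07), PSMC5 (log2 fold change -0.20, SE 0.043, adjusted p = 1.6e-05) and PSME3 (log2 fold change -0.20, SE 0.032, adjusted p = 3.34e-09) had the smallest adjusted p among the falls, and PSME1 rose (log2 fold change 0.22, SE 0.044, adjusted p = 2.28e-06). Of the 5 standard beta genes that fell none changed by more than 0.151 on the log2 scale. The 5 rises became 2 without high replicate 1, medium replicate 2 or medium replicate 3, and 3 without high replicate 2.

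**Figure D4:**
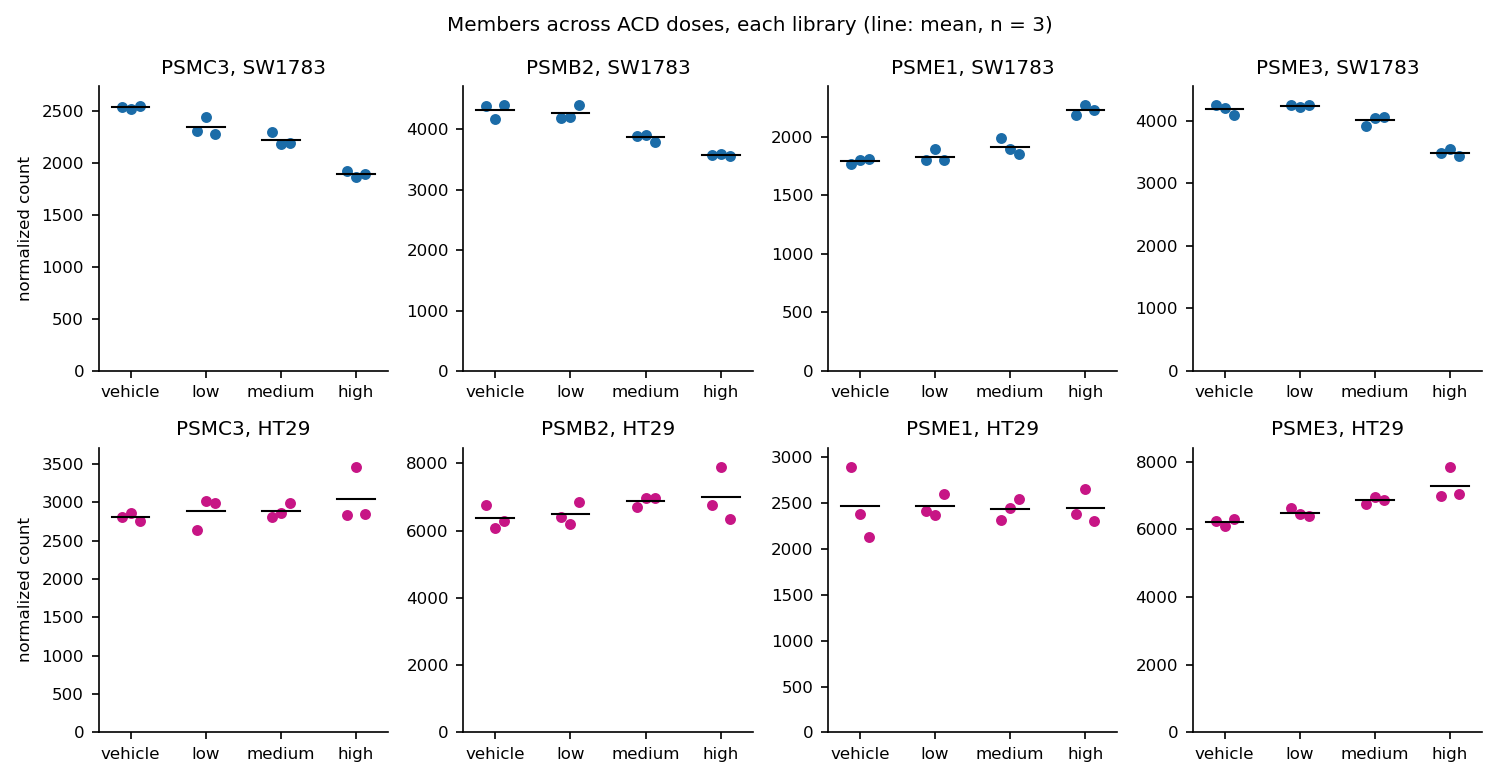
Normalized counts of PSMC3, PSMB2, PSME1 and PSME3 in vehicle and at low, medium and high ACD dose in SW1783 (upper row) and HT29 (lower row); points are libraries and lines means of 3. In SW1783 the 3 high-dose libraries lie below every vehicle library for PSMC3, PSMB2 and PSME3 and above them for PSME1. In HT29 replicate 2 of the high dose lies above every vehicle library for PSMC3 and PSMB2, and all 3 high-dose libraries do so for PSME3.

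In HT29 the same doses moved few members past the test. At the high dose 0 fell and 1 rose, against 3.92% and 4.34% of 15300 genes tested. At the medium dose 0 fell and 0 rose, against 0.881% and 1.1% of 17026 genes, and at the low dose 0 fell and 0 rose, against 0.282% and 0.27%. By DESeq2, 0 members at the high dose, 0 at the medium and 1 at the low dose had a lower value at an unadjusted p under 0.05, and 2 at the medium and 1 at the low dose a higher one; edgeR called none at any dose. The study rule called 0 members at the 3 doses in both tools, against 3.1%, 0.793% and 0.288% of all genes. From medium to high dose no member was called by DESeq2 or edgeR and 0 had an unadjusted p under 0.05, against 0.733% of 14724 genes falling and 0.971% rising. The 1 gene that rose was PSME3, 6991, 7854 and 7033 at the high dose and 6253, 6099 and 6319 in vehicle (log2 fold change 0.23, SE 0.055, adjusted p = 0.00116), which edgeR did not call (adjusted p = 0.0703).

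Replicate 2 decided the direction at the high dose. The median log2 ratio of its 45 members to the vehicle mean was 0.45, with 3 genes below the mean, while replicates 1 and 3 stood at -0.12 and -0.11 with 37 genes below it in each. The 14 core genes summed to 51058, 85973 and 51612 normalized counts in replicates 1, 2 and 3 and to 65357, 54776 and 53944 in vehicle. The 17 regulatory genes summed to 57658, 75686 and 57460 against 62617, 58477 and 59317. Leaving it out turned the median log2 fold change of the members from 0.11 to -0.11, beside -0.14 for SW1783, and 5 members then fell and 2 (PSME3 and PSME4) rose. PSMA2 went from 0.11 to -0.41 (adjusted p = 0.00378) and PSMB1 from 0.001 to -0.29 (adjusted p = 0.00626), and PSMA7, PSMB6 and PSMG1 fell as well. With all 3 replicates, mitochondrial ribosomal RNA held 11.96% of counts at the high dose against 1.18% in vehicle, and replicate 2, at 12.1%, lay between replicates 1 (12.5%) and 3 (11.3%); its part in these results was not tested. From medium to high dose, the median log2 fold change of the members was 0.096 with all libraries and -0.10 without high replicate 2. Members with an unadjusted p under 0.05 were then 6, all lower, whereas without high replicate 1 or 3 they were 8 and 6, all higher, and none passed the adjusted test.

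Single members show the same spread. The alpha ring gene PSMA3 was 1834, 3990 and 1938 at the high dose and 2190, 1917 and 1944 in vehicle (log2 fold change 0.36, SE 0.234). PSMB5, with the chymotrypsin-like site, was 1713, 3329 and 1809 against 2235, 1939 and 1793 (0.20, SE 0.210). For the deubiquitinase PSMD14 the values were 2048, 3831 and 2150 against 2252, 2160 and 2276 (0.26, SE 0.196). In each, replicate 2 lay above every other library and replicates 1 and 3 overlapped vehicle or lay below it. PSMC5, the ATPase with the smallest change, was 2794, 3947 and 2823 against 3063, 2913 and 2951 (0.10, 95% interval -0.14 to 0.34), and PSMC6, with the largest, 1155, 2014 and 1078 against 1301, 1245 and 1241 (0.16, 95% interval -0.22 to 0.55). Further values at the high dose and in vehicle were 4425, 5047 and 4373 against 5060, 4372 and 4426 for PSMD1 and 2687, 6286 and 2834 against 4281, 3456 and 3229 for PSMA2. PSMB1 was 3469, 5994 and 3709 against 4759, 4094 and 4295 and PSME1 2374, 2655 and 2300 against 2889, 2376 and 2125. Of the assembly genes PSMD10 was 654, 1135 and 691 against 809, 699 and 775 and PSMG3 779, 1152 and 782 against 994, 815 and 849, so that all of these groups overlapped.

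The immunoproteasome genes of HT29 did not pass at any ACD dose. PSMB8 was 220, 357 and 214 at the high dose, 253, 257 and 270 at the medium dose, 221, 231 and 260 at the low dose and 232, 239 and 188 in vehicle (log2 fold changes 0.24, 0.24 and 0.11). PSMB9 was 17.5, 37.6 and 17.2 at high, 23.4, 17.4 and 29.9 at medium and 17.4, 27.3 and 25.9 at low dose, beside 17.2, 24.9 and 16 in vehicle (log2 fold changes 0.22, 0.25 and 0.25). For PSMB10 the values were 621, 930 and 635 at high, 668, 721 and 733 at medium and 682, 706 and 770 at low dose, beside 858, 689 and 602 in vehicle (log2 fold changes 0.02, -0.01 and 0.007). At the medium dose the 3 PSMB8 libraries lay above all vehicle libraries, with an adjusted p of 0.76, and the 95% interval of -0.13 to 0.61 leaves room for both a small fall and a rise. At the high dose, leaving out replicate 2 put PSMB8 at -0.02, PSMB9 at -0.19 and PSMB10 at -0.19 on the log2 scale, below vehicle, and none of them passed.

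**Figure D5:**
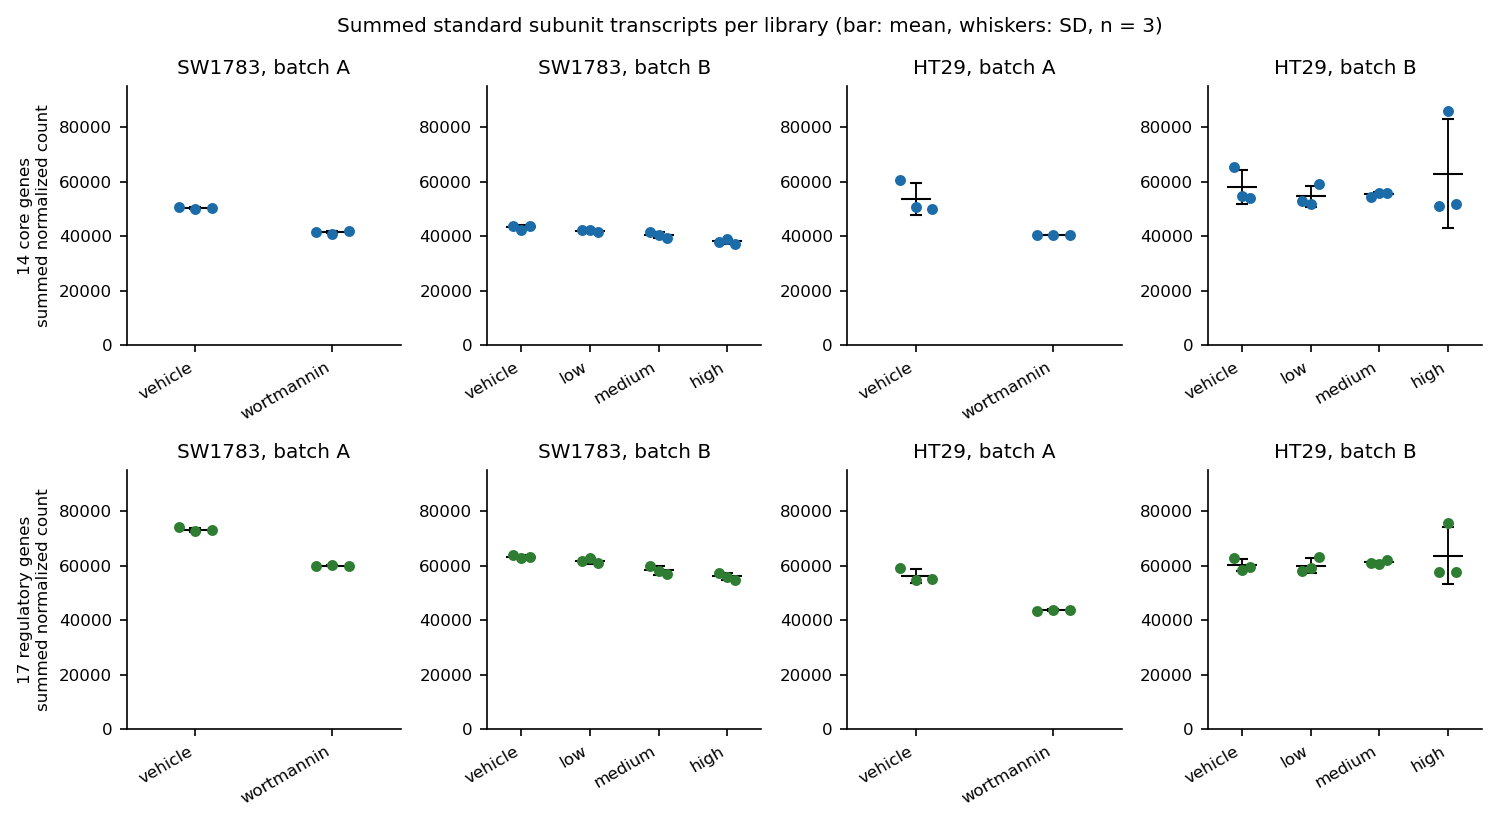
Summed normalized counts of the 14 standard core genes (upper row) and the 17 standard regulatory genes (lower row) in every library of each line and batch; points are libraries, bars means and whiskers SDs of 3, and scales are comparable only within a panel. Wortmannin libraries lie below vehicle in both lines, ACD libraries of SW1783 step down to 88.1% and 88.5% of vehicle at the high dose, and in HT29 1 high-dose library lies far above the rest.

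Whether the lines responded differently was tested as an interaction, the SW1783 change minus the HT29 change. Here too line and culture medium cannot be told apart. At the high dose 12 members (26.7%) had a lower and 1 a higher change in SW1783, against 15% and 12.7% of 18379 genes. Among genes with a mean of 500 or more normalized counts these shares were 23.3% and 18.2%. The share of members with a lower change thus lay near that of well-counted genes. Without HT29 high replicate 2 the counts were 9 and 4 and the median of the members moved from -0.31 to -0.11, whereas without HT29 high replicate 1 or 3, which gives replicate 2 more weight, 26 and 23 were lower. PSMB2, PSMC2, PSMC3, PSMC5, PSMD1, PSMD12, PSMD2, PSMD3 and PSME3 were lower and PSME1 was higher both with and without that library. PSMC3 (log2 fold change -0.58, SE 0.090, adjusted p = 3.09e-09) and PSME3 (log2 fold change -0.53, SE 0.050, adjusted p = 4.1e-24) differed most clearly, and without the library they stood at -0.49 and -0.48. The single higher gene, PSME1, was lost in 9 of the 12 fits that left out 1 library. PSME3 moved in opposite directions in the 2 lines, down in SW1783 and up in HT29.

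At the medium dose 5 members (11.1%) had a lower and 0 a higher change in SW1783, against 6.18% and 4.26% of 15047 genes. The 5 were PSMB2, PSMC3, PSMD1, PSMD3 and PSME3. Among genes with a mean of 500 or more normalized counts, 9.67% had a lower and 5.25% a higher change, so the lower share of members again lay near that background. Of the members edgeR called 3 and 0, and 0 had a higher value at an unadjusted p under 0.05. At the low dose 0 differed in either direction, against 0.622% and 0.307% of 12382 genes, with 3 lower and 0 higher at an unadjusted p under 0.05 and none called by edgeR. For wortmannin 5 members were lower and 3 higher in SW1783, against 10.0% and 5.6% of 12993 genes, and with TMM-derived size factors the counts were 3 and 5. Of these, PSMB9, PSMB8 and PSME2 (log2 fold change -0.47, SE 0.076, adjusted p = 5.44e-08) had the largest differences, while the 31 standard genes differed by -0.15 to 0.20, with a median of 0.07. Leaving out single libraries gave 3 to 5 lower and 1 to 6 higher genes, of which HT29 vehicle replicate 2 gave 3 and 6, and HT29 wortmannin replicate 1 gave 3 and 1.

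Genes that work with the proteasome were described by lists. Of 13 accessory genes, such as the assembly factor POMP and the deubiquitinase USP14, 10 fell with wortmannin in SW1783 and 7 in HT29, against 19.2% and 11.7% of all genes tested, and 0 rose by DESeq2 in either line, where 1 and 0 had a higher value at an unadjusted p under 0.05 and edgeR called 1 and 0. At high ACD in SW1783, where 23.1% of all genes rose and 21.9% fell, 6 of them rose and 3 fell. ZFAND2A, a proteasome-associated stress gene, was 593, 612 and 599 at high ACD in SW1783 and 299, 258 and 306 in vehicle (log2 fold change 1.07, SE 0.100, adjusted p = 1.18e-25). The list of the NFE2L1 route held the factor and the enzymes that release and activate it. At the high dose 6 of its 9 genes rose and 3 fell, against the same 23.1% and 21.9% of all genes and 39.4% and 33.0% of well-counted ones. The median log2 fold change of the list was 0.45. NFE2L1 itself was 13981, 13844 and 14494 against 9352, 9344 and 9013 (log2 fold change 0.61, SE 0.028, adjusted p = 2.43e-105). The ligase SYVN1 and its partner SEL1L, which export proteins from the endoplasmic reticulum for degradation, rose by 0.99 and 0.94 on the log2 scale.

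Of 12 genes for ubiquitin supply and delivery, 7 rose and 2 fell at high ACD in SW1783, against 23.1% and 21.9% of all genes tested. Among genes with a mean of 500 or more normalized counts, 39.4% rose and 33.0% fell at this dose. SQSTM1, a receptor that carries ubiquitylated cargo to autophagy, was 39111, 40445 and 41319 at the high dose, 18118, 18423 and 18279 at the medium dose and 9745, 10497 and 10726 in vehicle (log2 fold changes 1.97 and 0.82, SE 0.031 for each), the only gene of the 4 lists past the study rule at both doses. NFE2L1, SYVN1, SEL1L and SQSTM1, the genes of the NFE2L1 and ubiquitin lists past the study rule, rose in the libraries in which 25 of 31 standard subunit genes fell. In the same 2 lists, 3 of 9 and 2 of 12 genes fell. Whether these changes are linked to those of the subunits was not tested. In HT29 none of the 4 lists had a gene past the study rule at any ACD dose by DESeq2 or edgeR. At any fold, 3 of 13 accessory, 0 of 9 NFE2L1 route, 3 of 12 ubiquitin and 1 of 7 interferon-linked genes rose at the high dose in HT29 and none fell, against 4.34% of all genes rising and 3.92% falling; edgeR called 1, 0, 1 and 1. Without high replicate 2, 3, 2, 4 and 1 rose and 1, 1, 2 and 0 fell.

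Of 7 interferon-linked partners of the immunoproteasome, 4 rose and 0 fell at high ACD in SW1783, against 23.1% and 21.9% of all genes, with IRF1 at 1239, 1297 and 1274 against 514, 558 and 532 (log2 fold change 1.25, SE 0.067, adjusted p = 8.12e-75). With wortmannin in HT29 5 of the 7 rose and 0 fell, against 8.06% and 11.7%. NLRC5 was 56.6, 51.4 and 77.1 normalized counts against 16, 7.8 and 22.9 (log2 fold change 2.02, SE 0.401, adjusted p = 1.47e-05) and the peptide transporter gene TAP1 397, 385 and 430 against 281, 225 and 209 (log2 fold change 0.77, SE 0.135, adjusted p = 6.23e-07). In SW1783 2 of the 7 rose with wortmannin and 3 fell, against 13.3% and 19.2%, and none passed the study rule by DESeq2 or edgeR. NLRC5 and TAP1 were named after their values were seen.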

How the data were processed

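RNA-seq was performed on 36 directional mRNA libraries of SW1783 and HT29. Per the submitters' processing notes, reads were trimmed with Trim Galore 0.6.5, checked with FastQC 0.11.9, aligned with STAR 2.7.3a and quantified with RSEM 1.3.3. The methods of the study give other versions of Trim Galore and STAR and name another build beside GRCh38, that of the annotation, and the strand setting is not given in the sources used here. The authors deposited the values as RSEM expected counts per gene (8.84% of values not whole), which were rounded here. Total counts per library were 15941250 to 33866636, and limits for a count of 0 cover counting error only.

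Groups were taken from the sample labels. Treated and vehicle libraries of a given line and batch were compared by the Wald test of DESeq2 1.42.0 (R 4.3.3), fitted over all genes of a line and batch, with Benjamini-Hochberg adjustment. Differences between lines were tested as interactions. Genes were called at an adjusted p under 0.05, or, as in the study, with a change of more than 1.5-fold as well. Intervals are 95%. Alternatives were TMM-derived size factors, the quasi-likelihood test of edgeR 4.0.16, a filter of 10 counts in 3 libraries, nuclear protein-coding genes, a fit of only the groups compared, a replicate block, and fits without 1 library. The fits were also run on simulated data with the same spread for every gene and no outlying library, which does not cover HT29 at the high dose. Values in every library were given for members past the study rule against vehicle of the same line, for the immunoproteasome genes and, per role, for the members with the largest and smallest change at the high dose in each line; list genes were named when past the study rule at the high dose. Members and lists were chosen with earlier results of these data known. Promoters were taken from RefSeq (GRCh38.p14).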

Additional observations from a re-analysis of the deposited data

Results flagged for a closer look

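Several members were set apart because the change in SW1783 differed from that in HT29 by the interaction test of DESeq2 with Benjamini-Hochberg adjustment. The values are SW1783 minus HT29 on the log2 scale. At the high ACD dose they were -0.45 for PSMB2, -0.58 for PSMC3, -0.23 for PSMC4, -0.47 for PSMC5, -0.34 for PSMD1, 0.29 for PSME1 and -0.53 for PSME3. Of these, PSMC4 lost its call in 10 and PSME1 in 11 of 18 alternatives, and the other 5 in 0. At the medium dose they were -0.3 for PSMB2, -0.25 for PSMC3, -0.29 for PSMD1 and -0.22 for PSME3, of which PSMC3 lost its call in 14 of 18 alternatives.

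With wortmannin the differences were -0.74 for PSMB8, -1.64 for PSMB9 and -0.47 for PSME2, which kept their calls in all 17 alternatives. They were -0.15 for PSMC5, 0.19 for PSMD1 and -0.29 for PSMG1, which lost their calls in 13, 9 and 14 of 17.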

How the results depend on the processing

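Of the counts of called members recomputed under an alternative, 424 stayed within 1.5 times the reported count and 72 moved beyond it. Counts of 0 that stayed 0 are among the 424, which makes this total look steadier. Of the recomputed median log2 fold changes, 76 stayed within the SD of the treated libraries and 18 did not. Of the results for named members, 166 lost their call, 55 gained one, 2 changed sign and 4375 stayed the same. Leaving out HT29 high replicate 2 turned PSMA2 to -0.405 and PSMB1 to -0.288 at the high dose, with 2 members higher and 5 lower; over the fits without 1 library their highest values were 0.318 and 0.145. By edgeR, 2 members were higher at the medium dose in SW1783, 1 with wortmannin in SW1783 and 0 at the high dose in HT29, and the line difference had 3 lower at the medium dose and 3 lower with wortmannin. With nuclear protein-coding genes, 1 member was higher with wortmannin in SW1783 and 5 in the line difference. With TMM-derived size factors, 5 were higher and 3 lower in the wortmannin line difference. With only the groups compared, higher counts were 0 at the high and 1 at the medium dose in HT29, 2 from medium to high in SW1783 and 0 in the line difference at the high dose, and 12 were lower in that at the medium dose. The cause was not tested.

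Leaving out 1 library gave, for members higher, 2 to 4 at the high dose in SW1783, 1 to 2 at the high dose in HT29, 1 to 3 with wortmannin in HT29, 2 to 4 from medium to high in SW1783, and 0 to 4 and 1 to 6 in the high-dose and wortmannin line differences. For members lower it gave 12 to 20 at the medium dose and 0 at the low dose in SW1783, 0 to 5 at the high dose in HT29, and 8 to 26, 0 to 1 and 3 to 5 in the high-dose, low-dose and wortmannin line differences. Members past the study rule with wortmannin in HT29 numbered 0 to 3. In vehicle, 5 to 9 were lower in SW1783.

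The replicate numbers did not pair treated and vehicle libraries within a batch. Same-numbered libraries deviated from their group means with correlations of 0.042, -0.031 and -0.043 for high ACD in SW1783 and -0.461, -0.481 and 0.352 in HT29, and no comparison had all 3 above 0.1. With a replicate block, 33 members were lower with wortmannin in SW1783 and 29 in HT29, where 1 was higher and 1 passed the study rule. The block left 2 higher and 28 lower at the high and 19 lower at the medium dose in SW1783, 3 higher from medium to high, 0 higher in the high-dose line difference, and 0 higher and 3 lower in that for wortmannin.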
